A study of Mus musculus with 6 samples.

Results

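The matrix metalloproteinases and their tissue inhibitors were followed in cultured mouse peritoneal macrophages, which are phagocytes that live in the abdominal cavity. The set was chosen by symbol and holds 10 genes of the 24454 symbols in the count table: Mmp8, Mmp9, Mmp12, Mmp13, Mmp14, Mmp19, Mmp27, Timp1, Timp2 and Timp3. RNA enriched for polyA was sequenced in 6 libraries, 2 in each of 3 groups. The first group received 10 µM SGA360, which binds the aryl hydrocarbon receptor (AHR), for 1 h and then the bacterial endotoxin LPS at 10 ng/ml for 4 h. The second received the same LPS treatment, with no pretreatment given in the labels, and the third received vehicle for 5 h. All cells came from wild-type male C57BL6/J mice, 6 to 8 weeks old. Whether the 2 libraries of a group are of different animals or cultures is not stated in the labels; p-values here therefore reflect only how much these libraries differ, which may be technical.

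Metalloproteinases are zinc-dependent enzymes that cut collagens, elastin and other matrix proteins, as well as cytokines and receptors at the cell surface. Most are secreted as inactive proenzymes, and TIMP proteins block the active enzyme by binding its catalytic site. Macrophages are a known source of the elastase encoded by Mmp12 and of the gelatinase encoded by Mmp9, and the membrane-anchored enzyme encoded by Mmp14 activates the gelatinase encoded by Mmp2 in a complex that uses the Timp2 product as a bridge.

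Total counts per library were 7726973 to 9529817. Vehicle replicate 1 stood apart, with 10001 genes detected by at least 1 count, while the other 5 libraries had 12282 to 12643. Ribosomal RNA reads of Rn45s made up 4.92% of that library and at most 0.684% of any other. The macrophage lysozyme gene Lyz2 stood at 18255 to 22238 CPM, the count divided by the TMM-scaled library size and given per unit of 1000000 counts. The integrin gene Itgam, a macrophage marker with 2 transcript rows, had 0 counts in every library. Of the 7 macrophage markers tested, 2 rose with LPS against vehicle, Cd14 (log2 fold change 2.98) and Adgre1 (1.30), 3 fell, Fcgr1 (−2.39), Mertk (−2.14) and Csf1r (−0.34), and Lyz2 and Cd68 had no call. In that comparison 19.4% of all genes tested were called higher and 17.0% lower. Markers of other cells were also present. The 9 fibroblast markers in the table summed to 4741 and 5210 CPM with SGA360+LPS, 4421 and 4728 CPM with LPS, and 4686 and 5382 CPM in vehicle, and 1 of them had no count. Nearly all of each sum came from the collagen genes Col1a1, Col1a2 and Col3a1, at 1951, 2082 and 679 CPM in LPS replicate 1. Dcn, Lum and Thy1 reached at most 11.7 CPM in any library, and Pdgfra and Fap at most 1.42 CPM. The 9 mesothelial markers summed to 346 and 365 CPM with SGA360+LPS, 352 and 354 CPM with LPS, and 491 and 517 CPM in vehicle, again with 1 at 0. The 10 neutrophil markers summed to 15.5 and 17.7 CPM with SGA360+LPS, 19.2 and 21.3 CPM with LPS, and 13.1 and 19.6 CPM in vehicle. Ly6g and S100a9 were at 0 in every library, S100a9 over 2 transcript rows. Camp, which encodes a granule peptide of neutrophils, had 12 and 11 counts with SGA360+LPS, 19 and 14 with LPS, and 0 and 0 in vehicle. It was the 1 neutrophil marker of 3 tested that was called higher with LPS against vehicle. With 0 counts in vehicle, Camp passed the count filter only through the libraries with LPS, so it could not have been called lower. S100a8 (log2 fold change 0.90) and Retnlg (−0.43) were tested and had no call. Which cells of the cultures gave the reads of each metalloproteinase gene was not tested, and in such bulk RNA fewer cells of a type and less RNA per cell cannot be told apart.

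The 250 bases before the transcription start are shown for 5 genes that changed with LPS, because the neighbouring genes Mmp13 and Mmp12 went opposite ways and the inhibitor genes Timp2 and Timp3 went the same way. They are RefSeq sequences of build GRCm38.p6, matched by symbol for 8 of the 10 genes, and run 5′ to 3′ on the strand of the gene. No sequence was matched for Mmp9 and Mmp19, so Mmp9, which also changed with LPS, is left out here. Capitals mark matches to any of 3 motifs searched on both strands: TGANTCA, bound by AP-1 factors, GCGTG, the core bound by AHR, and the NF-kB consensus. For Mmp12 the start of the transcript in the count table was used.
Mmp13 (chr9:7272264-7272513, plus strand): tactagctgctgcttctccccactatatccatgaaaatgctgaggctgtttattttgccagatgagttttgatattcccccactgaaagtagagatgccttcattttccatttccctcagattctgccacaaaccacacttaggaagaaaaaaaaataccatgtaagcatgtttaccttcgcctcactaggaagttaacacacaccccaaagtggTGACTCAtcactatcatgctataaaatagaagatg
Mmp12 (chr9:7347124-7347373, plus strand): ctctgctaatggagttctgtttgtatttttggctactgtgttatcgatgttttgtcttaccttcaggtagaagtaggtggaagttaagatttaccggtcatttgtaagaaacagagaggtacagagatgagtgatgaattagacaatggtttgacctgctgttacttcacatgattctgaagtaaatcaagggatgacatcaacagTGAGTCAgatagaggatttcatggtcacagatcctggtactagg
Mmp14 (chr14:54431348-54431597, plus strand): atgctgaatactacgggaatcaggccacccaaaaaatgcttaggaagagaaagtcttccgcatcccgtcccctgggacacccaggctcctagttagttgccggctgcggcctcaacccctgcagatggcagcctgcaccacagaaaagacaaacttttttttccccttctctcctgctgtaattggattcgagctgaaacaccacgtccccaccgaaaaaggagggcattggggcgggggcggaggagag
Timp2 (chr11:118355412-118355661, minus strand): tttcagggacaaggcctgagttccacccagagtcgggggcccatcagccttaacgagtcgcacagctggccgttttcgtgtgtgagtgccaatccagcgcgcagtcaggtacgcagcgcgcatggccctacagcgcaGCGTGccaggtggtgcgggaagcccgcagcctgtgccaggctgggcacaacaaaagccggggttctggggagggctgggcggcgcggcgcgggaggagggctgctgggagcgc
Timp3 (chr10:86300162-86300411, plus strand): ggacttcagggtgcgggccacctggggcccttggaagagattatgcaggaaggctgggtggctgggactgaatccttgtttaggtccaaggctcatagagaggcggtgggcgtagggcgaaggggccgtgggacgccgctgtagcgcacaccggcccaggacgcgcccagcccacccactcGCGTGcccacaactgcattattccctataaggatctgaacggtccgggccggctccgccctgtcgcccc

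TGANTCA occurred in the Mmp13 window, beginning 35 bases before the start, and in the Mmp12 window, beginning 44 bases before it, while 6.75% of the 32851 promoter windows of this length hold it. GCGTG occurred in the Timp2 and Timp3 windows, beginning 113 and 69 bases before the start, and in 28.2% of all windows. None of the 5 windows shown held the NF-kB consensus, which 7.25% of all windows hold, and the Mmp14 window held none of the 3. Mmp12 has another listed start, whose window (chr9:7344147-7344396) is not shown. That window held the NF-kB consensus, beginning 129 bases before its start, and no TGANTCA. These matches describe letters only and say nothing of whether a factor binds there.

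The effect of the endotoxin was read from the LPS and vehicle libraries. Mmp9, Mmp14 and Mmp13 rose, Timp2, Mmp12 and Timp3 fell, and Mmp8 and Mmp27 had no call. Mmp19 and Timp1 did not pass the filter on low counts. At a Benjamini-Hochberg adjusted p under 0.05 in the quasi-likelihood test of edgeR, that makes 6 of the 8 tested genes called, 3 in each direction. In the same comparison 36.4% of the 9389 genes tested were called, 19.4% higher and 17.0% lower. The median log2 fold change was −0.30 over the 8 genes and −0.01 over all genes tested. Without vehicle replicate 1, which leaves a single vehicle library, the log2 fold change of Mmp8 was −0.71, against −0.59 in the main fit.

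Mmp9 encodes gelatinase B, which degrades denatured collagen and basement membrane collagen. It stood at 217 and 213 CPM with LPS, against 34.0 and 32.7 CPM in vehicle. The LPS libraries lay well above the vehicle libraries, and the libraries of each group nearly coincided. The log2 fold change was 2.69 (SE 0.10; adjusted p = 2.25e-08, edgeR), a 6.46-fold rise.

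Mmp14 encodes membrane type 1 metalloproteinase, which cleaves fibrillar collagen at the cell surface. It stood at 1835 and 1868 CPM with LPS, against 541 and 561 CPM in vehicle, so that the groups did not overlap. Its log2 fold change was 1.75 (SE 0.06; adjusted p = 9.90e-09, edgeR), a 3.36-fold rise. Per kilobase of transcript its mean level ranked 135 among the 8520 tested genes with a single transcript row in LPS libraries, and 332 in vehicle libraries.

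Mmp13 encodes collagenase 3, a secreted enzyme that cuts fibrillar collagens. Its counts were far lower, at 190 and 273 with LPS, or 25.3 and 29.8 CPM, against 108 and 82 in vehicle, or 12.1 and 8.53 CPM. Both LPS libraries lay above both vehicle libraries, and the log2 fold change was 1.43 (SE 0.19; adjusted p = 0.000249, edgeR). The wide interval of this change, 0.99 to 1.86 at 95%, goes with the low counts.

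Mmp12 encodes the macrophage elastase, and it was the most abundant of the 8 tested genes per kilobase in vehicle. It stood at 1238 and 1283 CPM with LPS, against 1669 and 1496 CPM in vehicle. Both LPS libraries lay below both vehicle libraries, by a smaller factor than in the 3 rises. The log2 fold change was −0.33 (SE 0.07; adjusted p = 0.0039, edgeR), and it ran from −0.46 to −0.23 over all alternatives, with the call kept in each.

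Timp2 encodes an inhibitor of metalloproteinases that also takes part in activating the Mmp2 product. It stood at 711 and 699 CPM with LPS, against 1210 and 1270 CPM in vehicle, with no overlap of the groups. The log2 fold change was −0.82 (SE 0.06; adjusted p = 4.63e-06, edgeR), the largest fall among the called genes of the set. Timp3 encodes an inhibitor that binds to the matrix and also blocks sheddases of the ADAM family. It stood at 407 and 388 CPM with LPS, against 492 and 465 CPM in vehicle, and fell by 0.27 on the log2 scale (SE 0.06; adjusted p = 0.0089, edgeR). Without LPS replicate 2 this call was lost (−0.22; adjusted p = 0.115, edgeR, in a range from 0.00117 to 0.115 over the alternatives). Of the 8 tested mesothelial markers 3 fell as well, Lrrn4 (−1.04), Upk1b (−0.66) and Upk3b (−0.47), while 17.0% of all genes tested fell. The other mesothelial markers had no call, with Msln at −0.48, Krt8 at −0.30, Krt18 at −0.24, and Krt19 and Wt1 at −0.09 each. The part of these markers in the falls of Timp2 and Timp3 was not tested.

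Mmp8 encodes a collagenase known best from neutrophil granules, and the part of the neutrophil marker levels above in its values was not tested. It had 60 and 108 counts with LPS, or 7.98 and 11.8 CPM, against 119 and 160 in vehicle, or 13.3 and 16.6 CPM. Although the groups did not overlap, the change did not pass the test (log2 fold change −0.59, SE 0.23; adjusted p = 0.0764, edgeR). It did with libraries scaled by their totals alone (−0.72, adjusted p = 0.0406, edgeR). The change of Mmp8 was −0.71 without vehicle replicate 1 and −0.39 without vehicle replicate 2, fits that each leave a single vehicle library. Over all alternatives it ran from −0.89 to −0.32. Mmp27, a less studied relative, had 20 and 9 counts with LPS, against 34 and 29 in vehicle (log2 fold change −0.92, 95% interval −2.19 to 0.35). Such counts cannot show whether it changed. All 8 tested genes had groups that did not overlap in CPM, as did 65.9% of all genes tested.

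Mmp19, which encodes a secreted metalloproteinase, had 2 and 1 counts with SGA360+LPS, 1 and 0 with LPS, and 13 and 1 in vehicle. Its 1 higher value lay in the vehicle library that stood apart. In the fit without vehicle replicate 2 that library is the whole vehicle group, and Mmp19 was then lower with LPS (log2 fold change −4.28; adjusted p = 0.00491, edgeR, in a range up to 0.557 over the fits that tested it). Timp1, the inhibitor gene known to respond to cytokines, had 0 counts in all 6 libraries over its 3 transcript rows. The 5639 symbols with several rows, Mmp19, Mmp27 and Timp1 among them, held only 1.87% of all counts. Reads shared between transcripts may be missing from such rows, and no statement on the expression of Timp1 or Mmp19 is made.

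**Figure D1:**
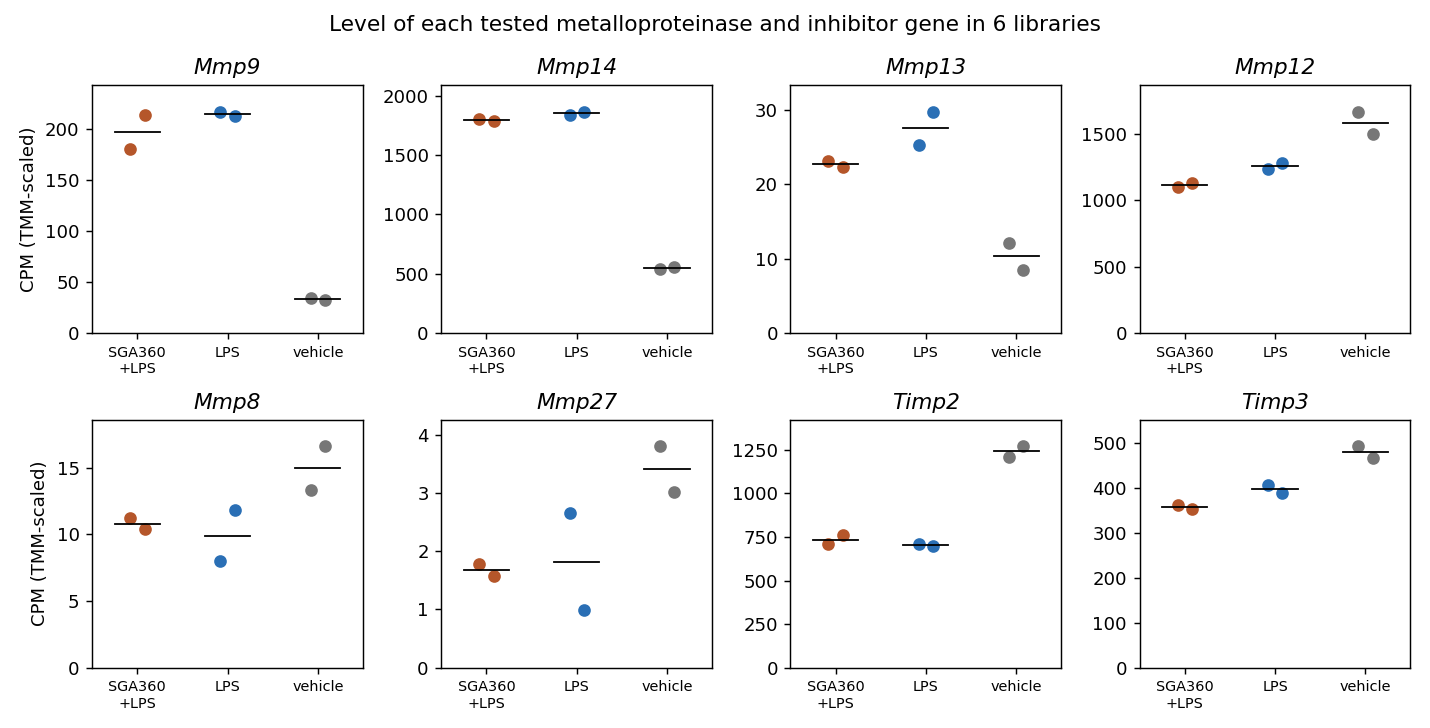
Level of each of the 8 tested genes in CPM (y axis, from 0, a separate scale for each gene) in the SGA360+LPS, LPS and vehicle libraries. Points are single libraries and lines are group means (n = 2). Mmp9, Mmp14 and Mmp13 lie high and Timp2, Mmp12 and Timp3 lie low in the 4 libraries with LPS.

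The order of the genes by level differed between groups. Per kilobase of transcript, Mmp14 led with LPS at 710 ± 9.04 CPM per kb (SD, n = 2), followed by Mmp12 at 348 ± 8.63, Timp2 at 194 ± 2.39, Timp3 at 84.7 ± 2.86 and Mmp9 at 67.5 ± 0.869. Mmp13 at 10.3 ± 1.20, Mmp8 at 4.02 ± 1.1 and Mmp27 at 0.851 ± 0.553 CPM per kb came last. In vehicle, Mmp12 led at 438 ± 33.8 CPM per kb, followed by Timp2 at 342 ± 11.8, Mmp14 at 211 ± 5.37, Timp3 at 102 ± 4.09 and Mmp9 at 10.5 ± 0.288, with Mmp8 at 6.08 ± 0.962, Mmp13 at 3.84 ± 0.931 and Mmp27 at 1.59 ± 0.258 last. With SGA360+LPS the order was that of LPS alone. In each group, no gene's 2 libraries overlapped those of the next gene in the order. Mmp27 has 2 transcript rows, from which shared reads may be missing, so its last place is uncertain.

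The makeup of the metalloproteinase transcripts also differed. Mmp14 took 64.8% and 63.6% of the summed level of the 7 metalloproteinase genes per kilobase with SGA360+LPS, 62.4% and 62.1% with LPS, and 30.0% and 33.1% in vehicle. Mmp12 took 28.6% and 29.0% with SGA360+LPS, 30.3% and 30.7% with LPS, and 66.7% and 63.6% in vehicle. The summed level was 1067 and 1081 CPM per kb with SGA360+LPS, 1128 and 1155 with LPS, and 692 and 650 in vehicle. These sums and shares take Mmp19 and Mmp27 as counted, though reads shared between transcripts may be missing from their rows. For the inhibitor genes it was 273 and 284 CPM per kb with SGA360+LPS, 283 and 275 with LPS, and 439 and 449 in vehicle, without Timp1, which had no count.

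The ratio of Mmp14 to Timp2 transcripts per kilobase was 3.54 and 3.28 with SGA360+LPS, 3.59 and 3.72 with LPS, and 0.622 and 0.614 in vehicle. Thus Timp2 exceeded Mmp14 in both vehicle libraries, and Mmp14 exceeded Timp2 in all 4 libraries with LPS. Mmp2, which encodes the gelatinase that both act on, rose too. It stood at 53.7 and 58.5 CPM with LPS, against 12.3 and 8.85 CPM in vehicle, and its log2 fold change was 2.41 (SE 0.16; adjusted p = 1.35e-06, edgeR).

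**Figure D2:**
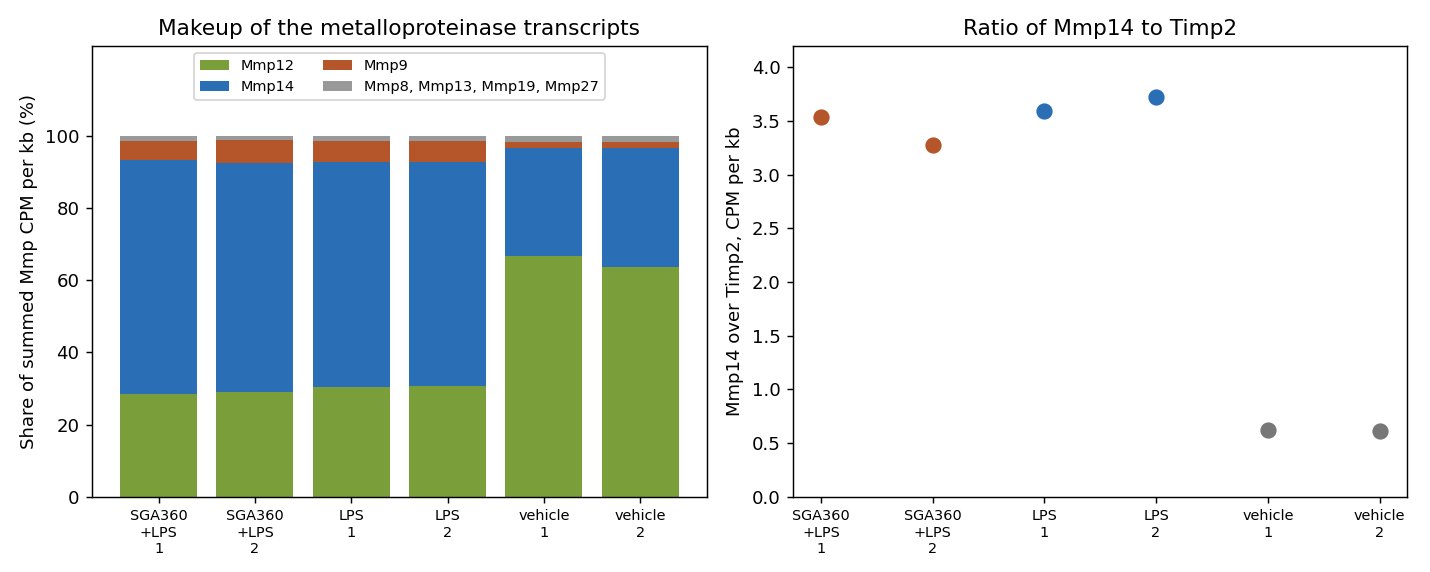
Left, share of each metalloproteinase gene in their summed level (y axis, percent of CPM per kb) in each library. Right, ratio of Mmp14 to Timp2 in CPM per kb (y axis) in each library, which lies between 3.28 and 3.72 with LPS, with or without SGA360, and at 0.622 and 0.614 in vehicle.

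Of the set, 4 genes lie in 1 cluster on chromosome 9 (build mm10). It holds 10 metalloproteinase genes of the table within 426.9 kb of the start of Mmp13, which spans 7272514 to 7283333. Mmp12 spans 7347374 to 7360461, Mmp8 spans 7558429 to 7568486 and Mmp27 spans 7571396 to 7581885, all on the plus strand. Mmp13 rose and Mmp12, the next metalloproteinase gene, fell. Mmp3 and Mmp10, which encode stromelysins and are named here for their position, lie between Mmp12 and Mmp8. Mmp3 stood at 8.78 and 9.29 CPM with LPS, against 6.70 and 6.66 CPM in vehicle, and Mmp10 at 2.39 and 3.17 CPM, against 2.01 and 1.87 CPM. Neither passed the test (log2 fold changes 0.44, SE 0.24, and 0.52, SE 0.49). The other 4 genes of the cluster, Mmp1b, Mmp1a, Mmp20 and Mmp7, had at most 4 counts in any library.

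**Figure D3:**
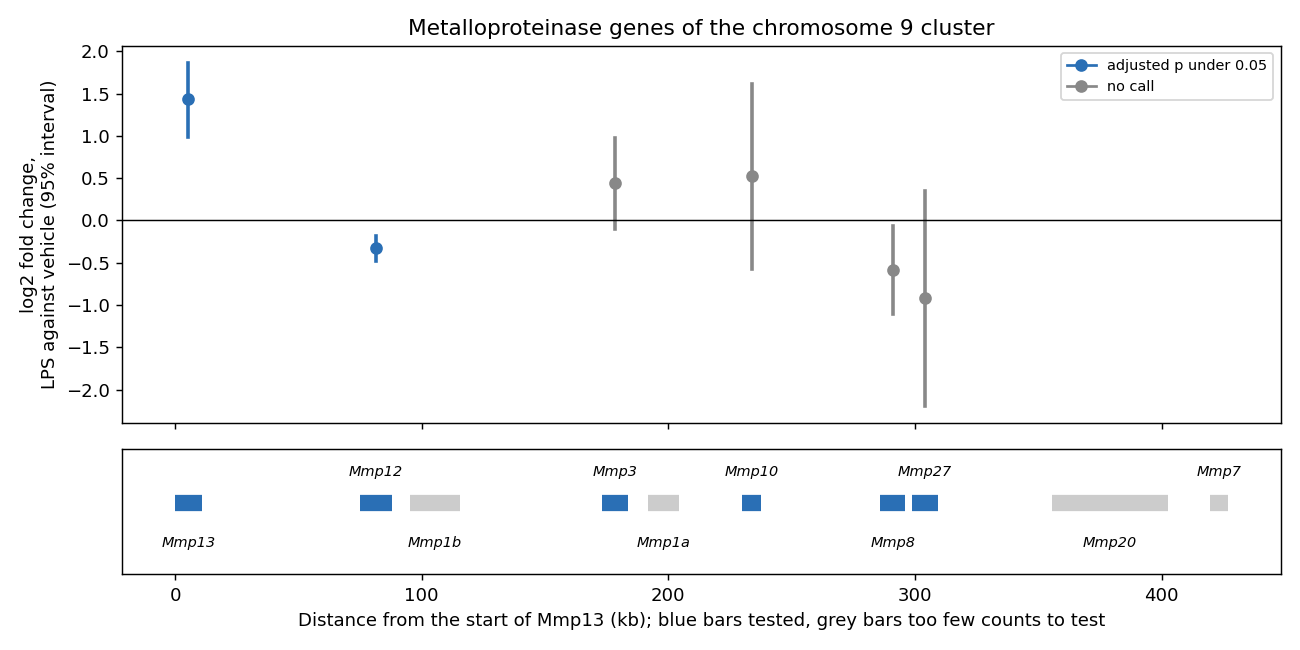
Metalloproteinase genes of the chromosome 9 cluster by distance from the start of Mmp13 (x axis, kb). The upper panel gives the log2 fold change of LPS against vehicle (y axis) with its 95% interval for the 6 tested genes, with Mmp13 at 1.43 and Mmp12 at −0.33, and the bars below are the gene spans.

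Outside the cluster, Mmp9 lies on chromosome 2 from 164948219 to 164955849, Mmp14 on chromosome 14 from 54431604 to 54441258 and Mmp19 on chromosome 10 from 128790910 to 128800824. Timp2 lies on chromosome 11 from 118301061 to 118355411 on the minus strand, Timp3 on chromosome 10 from 86300412 to 86349505 and Timp1 on chromosome X from 20870166 to 20874737. All are annotated as protein-coding, and their counts are of reads assigned to transcripts. The span of Timp3 lies over Syn3, and that of Timp1 over Syn1, both on the other strand, Timp2 overlaps Cep295nl, and Mmp19 overlaps Tmem198b and Gm47093. The strand setting of the counting is not known from the labels, and the reads of overlapping genes cannot be separated. Syn3 itself had 7 to 18 counts per library.

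The effect of the AHR ligand under endotoxin was read from the SGA360+LPS and LPS libraries. None of the 8 tested genes passed the test of edgeR or of limma-voom. DESeq2 gave an adjusted p for 5 of them, none under 0.05, and none for Mmp8, Mmp13 and Mmp27. Of all genes tested by edgeR, 0.0746% were called, 7 in number. By unadjusted p under 0.05, 2 of the 8 genes and 276 of all 9389 passed. The median log2 fold change was −0.12 over the 8 genes and 0.00 over all genes tested, and 6 of the 8 lay below 0.

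Mmp12 was 1 of the 2, at 1102 and 1134 CPM with SGA360+LPS, against 1238 and 1283 CPM with LPS. Both libraries with the ligand lay below both without it, by a log2 fold change of −0.17 (95% interval −0.33 to −0.02). Timp3 was the other, at 362 and 352 CPM with SGA360+LPS, against 407 and 388 CPM with LPS (−0.15, 95% interval −0.30 to −0.01). For both the adjusted p was 1 by edgeR, in ranges from 0.399 and 0.477 to 1 over the alternatives. Mmp13 stood at 23.2 and 22.4 CPM with SGA360+LPS, against 25.3 and 29.8 CPM with LPS (−0.28, 95% interval −0.68 to 0.13).

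For Mmp14, with 1802 and 1791 CPM with SGA360+LPS against 1835 and 1868 CPM with LPS, the interval of the log2 fold change ran from −0.17 to 0.08. Mmp9 stood at 180 and 214 CPM with SGA360+LPS, against 217 and 213 CPM with LPS, and its groups overlapped (−0.13, 95% interval −0.33 to 0.07). Timp2 stood at 709 and 759 CPM with SGA360+LPS, against 711 and 699 CPM with LPS, with overlap as well (0.06, 95% interval −0.08 to 0.20). The intervals of Mmp8 (−0.42 to 0.65) and Mmp27 (−1.45 to 1.25) were wide. Groups that did not overlap were found for 4 of the 8 genes, Mmp12, Mmp13, Mmp14 and Timp3, each lower with the ligand, and for 39.5% of all genes tested, of which about equal shares were higher (19.9%) and lower (19.6%). These intervals and p-values use a spread estimated from all 6 libraries, the vehicle libraries included. A p that misses the threshold does not show that the groups were alike.

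**Figure D4:**
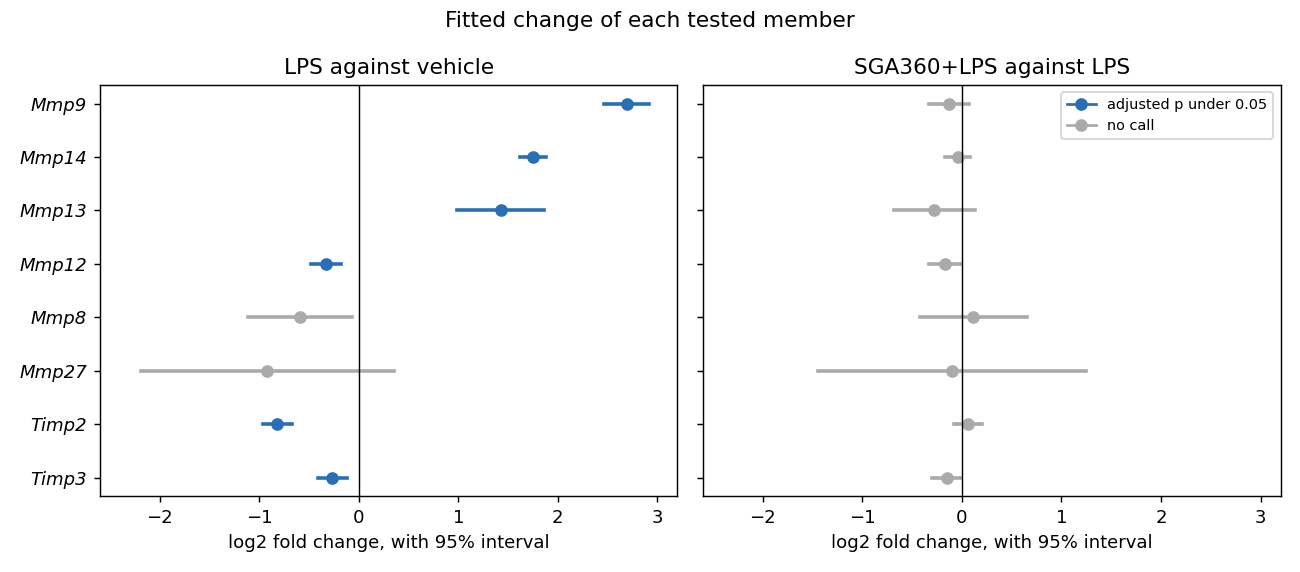
Log2 fold change (x axis) of the 8 tested genes with its 95% interval, for LPS against vehicle (left) and SGA360+LPS against LPS (right). Blue marks an adjusted p under 0.05 by edgeR. On the left 6 genes are called, and on the right none, with Mmp12 and Timp3 at −0.17 and −0.15.

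The comparison of SGA360+LPS with vehicle shares its vehicle libraries with that of LPS alone, so the 2 sets of values are given side by side only. Of the 8 tested genes 3 rose and 3 fell, while 33.1% of all genes tested were called, 17.9% higher and 15.2% lower. Mmp9 rose by 2.56 on the log2 scale (SE 0.10), Mmp14 by 1.71 (SE 0.06) and Mmp13 by 1.15 (SE 0.19). Timp2 fell by 0.76 (SE 0.06), Mmp12 fell by 0.50 (SE 0.07) and Timp3 fell by 0.42 (SE 0.07) on the log2 scale. The adjusted p by edgeR lay between 1.32e-08 for Mmp14 and 0.00121 for Mmp13. Mmp8 at −0.47 (adjusted p = 0.151, edgeR) had no call. Without vehicle replicate 1 it was at −0.61 and without vehicle replicate 2 at −0.28, each fit leaving a single vehicle library.

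Of 17 other metalloproteinase and inhibitor genes, 7 were tested with LPS against vehicle, 1 of which rose, Mmp2, and 0 fell (6 had no call, median log2 fold change 0.52). Over all 9389 genes tested in that comparison, 36.4% were called, 19.4% higher and 17.0% lower. The most abundant of those without a call were Mmp23 (−0.32) and Mmp17 (−0.67; adjusted p = 0.0611, edgeR). The other 10, Timp4 among them, had too few counts.

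Of 21 genes that activate or regulate metalloproteinases, 12 were tested, of which 5 rose and 2 fell with LPS (median log2 fold change 0.41). Among all genes tested, 19.4% rose and 17.0% fell. Furin, Bsg, Cd44 and Thbs1 were not tested, and each has several transcript rows from which shared reads may be missing. Lcn2, whose product binds the enzyme encoded by Mmp9, rose to 112 ± 10.5 CPM with LPS, against 2.25 ± 0.496 CPM in vehicle (SD, n = 2 each; log2 fold change 5.62, SE 0.17). Plaur, encoding the urokinase receptor, rose by 1.5 (SE 0.09). Itgb3, encoding an integrin subunit, fell by 1.46 (SE 0.20) on the log2 scale. Plau, encoding urokinase, stood at 0.17 (SE 0.09) with LPS alone, and was called with SGA360+LPS against vehicle (0.35, SE 0.09; adjusted p = 0.0112, edgeR), while SGA360+LPS against LPS alone was not called (0.18, SE 0.09). The matrix-binding receptor gene Sdc1 stood at 0.17 (SE 0.07) with LPS, with no call.

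Of 22 ADAM and ADAMTS protease genes, 12 were tested, of which 2 rose and 1 fell with LPS (median log2 fold change 0.30). The shares over all genes tested were 19.4% higher and 17.0% lower. Most genes not tested, such as Adam8, Adam9 and Adam17, have several transcript rows from which shared reads may be missing. Their low counts do not show absence. Adamts9 rose by 1.36 (SE 0.09) and Adamts15 by 1.04 (SE 0.20), both encoding proteases that cut proteoglycans, and Adam10, encoding a sheddase, fell by 0.46 (SE 0.07) on the log2 scale. Adam12 (0.05) and Adamts2 (−0.17) were the most abundant without a call. Of 19 matrix substrate genes, 16 were tested, of which 3 rose and 3 fell (median log2 fold change −0.07), beside the same shares over all genes tested. Col4a1, Sparc and Vcan were not tested and likewise have several transcript rows. The fibrillin gene Fbn1 rose by 0.69 (SE 0.08), the collagen gene Col5a1 by 0.44 (SE 0.10) and Fn1, the fibronectin gene, which has 7 transcript rows and is uncertain for that reason, by 0.90 (SE 0.22), while Col3a1 fell by 0.41 (SE 0.07) on the log2 scale. Col1a1 stood at 1895 ± 78.5 CPM with LPS, against 1953 ± 309 CPM in vehicle (SD, n = 2 each), and Col1a2 at 2003 ± 112 CPM, against 2181 ± 161 CPM, both with no call. No gene of these 4 lists was called between SGA360+LPS and LPS alone.

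The genes whose profile over the 6 libraries lay nearest to Mmp9, Mmp14 and Mmp13 were taken by the Euclidean distance of log2 CPM, centred for each gene, among 7356 tested genes with a mean of at least 5 CPM. Nearest to Mmp9 were Casp4 at a distance of 0.141, Lcp2 at 0.205 and Tnfaip2 at 0.233, whose log2 fold changes with LPS were 2.60, 2.69 and 2.71. Nearest to Mmp14 were Tgm2 at 0.0422, Met at 0.0549 and Dcbld2 at 0.0903, with log2 fold changes of 1.71, 1.79 and 1.81. Nearest to Mmp13 were Cyp7b1 at 0.181, Myd88 at 0.233 and Fmnl2 at 0.238, with log2 fold changes of 1.36, 1.18 and 1.33. The profile of Mmp14 thus had closer matches than the other two, and its counts were also the highest of the 3.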

How the data were processed

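Libraries of polyA-enriched RNA were sequenced by the submitters, who deposited unnormalized counts of reads for 34751 transcripts in a single table. TopHat2 2.0.13, HTSeq 0.5.4p3 and the build mm10 are named in the submitters' processing notes. The annotation version, strand setting and treatment of shared reads were not given in the sources used here. The table's transcript lengths, another deposited value, gave CPM per kb.

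Counts were summed per symbol, filtered with filterByExpr (minimum count 10) and normalized by TMM. All 6 libraries entered 1 quasi-likelihood model of the 3 groups (edgeR 4.0.16 in R 4.3.3, glmQLFit and glmQLFTest), which has 3 residual degrees of freedom. P-values were adjusted by Benjamini-Hochberg over all genes tested in a comparison. SE was obtained from the log2 fold change and its F statistic. Starts are given as the table's start plus 1 base. No replicate pair agreed within sampling noise by chi-square. Counting error alone is not the full error, because the reads carry no molecular identifiers and may share a molecule. The scripts were tested on simulated data. Alternatives included DESeq2 1.42.0 and limma-voom 3.58.1.

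The members and gene lists were chosen with earlier results of these data known. Named are all members and, for each list, up to 4 called genes by size of change with LPS with a mean of at least 1 CPM and up to 2 abundant genes without a call. Mmp3 and Mmp10 are named for their position. A gene that this rule names is not reported here.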

Additional observations from a re-analysis of the deposited data

How the results depend on the processing

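The 6 calls of LPS against vehicle and the 6 of SGA360+LPS against vehicle held under all 15 alternatives, except that of Timp3 with LPS without LPS replicate 2, so that 5 to 7 genes of the set were called with LPS and 6 or 7 with SGA360+LPS. Between SGA360+LPS and LPS 0 were called under every alternative, of which DESeq2 gave an adjusted p for 5 genes only. Over all genes, calls ran from 2091 to 5494 for LPS against vehicle (3413 in the main analysis), from 0 to 16 for SGA360+LPS against LPS (7) and from 1831 to 5315 for SGA360+LPS against vehicle (3107) when 1 library was left out; the lowest of the first came without LPS replicate 2, the lowest of the last without SGA360+LPS replicate 1, and both highest without vehicle replicate 2. Between SGA360+LPS and LPS, DESeq2 called 11 genes, the fit with no filter 17 and the fit on these groups alone 12; the cause was not tested. Mmp27 in that comparison was at −0.10, at 0.09 by limma-voom and from −0.66 to 0.75 with 1 library left out, and Mmp8 was at 0.11, and from −0.13 to 0.44; without LPS replicate 1 both changed sign. Scaling by library totals alone moved the median of all genes to −0.14 for LPS against vehicle and −0.12 for SGA360+LPS against vehicle, from −0.01 in each. It moved the share of calls that were higher to 37.0% and 38.1%, from 53.3% and 54.0%. No called gene of the set changed direction. Replicate numbers are shared by the groups, but the labels do not say that they pair libraries. The correlation of the deviations of same-numbered libraries was −0.007 for LPS and vehicle, 0.163 for SGA360+LPS and LPS, and 0.015 for SGA360+LPS and vehicle. With the replicate number as a block, 3434, 5 and 3136 genes were called, and 6, 0 and 6 of the set. Low counts limit the precision for Mmp8, Mmp13 and Mmp27. Mmp19 was below the count filter of the main analysis and was tested in 6 of the alternatives.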
